A study of Mus musculus with 12 samples.

Results

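Complex I, the NADH:ubiquinone oxidoreductase, is the largest enzyme of the mitochondrial respiratory chain and the main entry point for electrons from fuel oxidation, on which the beating heart depends for ATP. Its matrix arm takes electrons from NADH and passes them through a flavin and a chain of iron-sulfur clusters to ubiquinone, and its membrane arm uses the energy to pump protons. Conserved core subunits carry out the chemistry, accessory subunits surround and stabilise them, and assembly factors build the enzyme without staying in it. Genes were chosen by name, as all symbols that start with Nduf, in RNA-seq tables of Med30 knockout hearts. The rule gave 46 of the 20775 symbols listed in each table. By role, 7 encode core subunits of the matrix arm, 9 accessory subunits of the matrix arm, 19 accessory subunits of the membrane arm, 8 assembly factors, and 1 (Ndufab1) a subunit found in both arms. The other 2, Ndufa4 and Ndufa4l2, go by a complex I name, although NDUFA4 is now regarded as a subunit of complex IV. Core subunits of the membrane arm are encoded by mitochondrial DNA and were not analysed here.

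MED30 is a subunit of Mediator, the complex that links transcription factors to RNA polymerase II. Whole hearts came from embryos at E10.5, with 3 Ctrl samples and 3 cKO samples (Tnnt-Cre; Med30 f/f, in which the cardiac troponin T promoter drives Cre in developing cardiomyocytes). Cardiomyocytes came from mice listed as 3 months old, 4 weeks after tamoxifen (TAM), with 3 Ctrl samples, which had tamoxifen too, and 3 icKO samples (αMHC-MerCreMer; Med30 f/f, in which tamoxifen releases a cardiomyocyte Cre). The strain is given as C57BL/6, the controls are labelled wild type, and the methods of the study describe them as Cre-negative Med30 f/f littermates, so that an effect of Cre cannot be told apart from the loss of Med30. The floxed allele, with exon 1 flanked by loxP, was made in embryonic stem cells. Nothing in the labels says whether embryonic hearts were pooled, and p-values measure the spread between these samples only.

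Values are RPKM, reads divided by transcript length and by the total of reads, which allow levels to be compared between genes. Depth estimated from the steps between low values was 12000000 to 20000000 reads per sample. Med30 itself averaged 11.7 RPKM in Ctrl hearts against 1.47 RPKM after knockout at E10.5, and 7.59 RPKM in Ctrl cardiomyocytes against 2.93 RPKM at 4 weeks, with no overlap between groups at either stage. At 4 weeks the 20 most abundant genes held 24.2% to 24.8% of all RPKM in Ctrl samples and 10.7% to 12.2% in icKO samples. As deposited, fold changes over every gene tested had a log2 median of 0.57 at 4 weeks and -0.13 at E10.5. Median-ratio scaling, which divides each sample by its median ratio to a reference over all genes, brought these medians to 0.04 and -0.01, and its values are given beside those as deposited. Every difference below is a log2 fold change of knockout against Ctrl on the log2(RPKM + 0.1) scale, positive where the knockout was higher. "Passed" means an adjusted p below 0.05 over all genes tested, and "beyond 2-fold" also a log2 fold change over 1 in size.

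Promoters of the genes on which the results turn are shown first. They are RefSeq windows of mouse build GRCm38.p6, reaching from 250 bases before to 50 bases after an annotated start, and 40 of the 46 genes had one. All were searched on both strands for the NRF1 and YY1 motifs, whose letters are the capitals in the stretches printed here, the ETS (GABPA) motif CCGGAAGT and the ERR motif TCAAGGTCA, named after factors known for their sites at nuclear genes of mitochondrial proteins. A match describes letters in the window and is not evidence of binding. Capitals mark the motif, and positions count from the start, with -1 the last base before it. The NRF1 motif lay in 3 of the 40 windows (7.5%), against 1.07% of all 27025 genes with a window and 2.44% of those tested in either table. It lay upstream of Ndufa11 and of Ndufaf4. As deposited, these had the highest and the lowest log2 fold change at 4 weeks of the Nduf genes tested other than Ndufs5. These stretches are at chr17:56717677-56717736 (plus strand, motif from -60) and chr4:24897945-24898004 (plus strand, motif from -113).
Ndufa11: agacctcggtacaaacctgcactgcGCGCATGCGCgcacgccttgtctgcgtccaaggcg
Ndufaf4: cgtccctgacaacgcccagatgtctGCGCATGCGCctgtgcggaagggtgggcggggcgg

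The third match was in Ndufaf5, after its start. The YY1 motif lay in 5 windows (12.5%), against 0.75% of all genes and 1.95% of those tested, and in all 5 it began between 11 and 36 bases after the start. The members were Ndufs7, Ndufs4, Ndufs6, Ndufa9 and Ndufaf8. These 30-base stretches are shown because the same letters recur in genes of different arms and roles. They lie at chr10:80249464-80249493 (plus strand), chr13:114388045-114388074, chr13:73328433-73328462 and chr6:126849095-126849124 (minus strand) and chr11:120098935-120098964 (plus strand), in the order printed.
Ndufs7: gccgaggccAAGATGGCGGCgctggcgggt
Ndufs4: gcgtttgcctacaggAAGATGGCGGCggtc
Ndufs6: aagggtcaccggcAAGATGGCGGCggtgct
Ndufa9: ttgtgggagAAGATGGCGGCcgccgtccgc
Ndufaf8: gcagggcccAAGATGGCGGCgccctcgaga

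The ETS motif was found in 1 window, that of Ndufs3 (2.5%, against 4.31% of all genes and 9.55% of those tested), and the ERR motif in 0 of 40, against 0.47% of all genes and 0.32% of those tested. The 100 bases before the start of 3 core subunit genes follow, since Ndufs7 and Ndufs8 had the lowest log2 fold changes of the core subunits at 4 weeks and Ndufv1 the highest. None of the 4 motifs fell in these bases. They lie at chr10:80249349-80249448 (plus strand), chr19:3912775-3912874 and chr19:4012756-4012855 (minus strand).
Ndufs7: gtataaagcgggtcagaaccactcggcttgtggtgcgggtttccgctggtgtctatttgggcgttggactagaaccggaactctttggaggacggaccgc
Ndufs8: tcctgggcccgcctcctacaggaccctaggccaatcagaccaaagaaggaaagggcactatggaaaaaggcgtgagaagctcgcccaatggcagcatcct
Ndufv1: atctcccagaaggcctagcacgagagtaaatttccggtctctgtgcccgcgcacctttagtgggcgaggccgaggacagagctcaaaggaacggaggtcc

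In Ctrl samples, subunit transcripts were more abundant than assembly factor transcripts. At E10.5 the median level per gene was 55.0 RPKM for core subunits, 49.5 RPKM for matrix arm and 46.4 RPKM for membrane arm accessory subunits, against 6.73 RPKM for assembly factors. In adult cardiomyocytes the same medians were 217, 190 and 185 RPKM, against 9.22 RPKM for assembly factors. The tables were normalised separately, so the levels of the stages stand side by side without a test. Ndufb8 and Ndufa4 led at E10.5 with 139.0 and 138.8 RPKM. Ndufa4 led in adult cardiomyocytes with 682 RPKM, rank 30 of all genes, followed by Ndufb8 with 526 RPKM and Ndufb9 with 510 RPKM. Ndufa4l2, whose product is known as a hypoxia-induced relative of NDUFA4, stayed below the filter of a mean of 1 RPKM at both stages, between 0 and 0.725 RPKM at E10.5 and between 0.314 and 1.82 RPKM at 4 weeks, and was not tested. The other 45 passed the filter in both tables.

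Ndufs5 is reported as uncertain. It ranged from 0 to 5.87 RPKM at E10.5, and at 4 weeks from 0 to 0.659 RPKM in 5 samples with 17.5 RPKM in icKO replicate 1. Of its 50-base words, 41.2% also occur in BC002163, so that counting may have split its reads, and at 4 weeks 3 reads correspond to 0.327 to 0.476 RPKM. Other members share sequence too, among them Ndufs3 (39.7% of 50-base words shared), Ndufb4 (37.0%), Ndufb6 (34.1%, all with Smim27 on the other strand) and Ndufb2 (33.5%). Ndufs7, Ndufs8, Ndufb10, Ndufv1, Ndufv2, Ndufs4 and the assembly factors other than Ndufaf7 shared none. Exons of some members overlap a gene on the other strand, such as Vmac for Ndufa11, Impdh2 for Ndufaf3 and Eef1b2 for Ndufs1, and whether reads were counted by strand is not given in the sources used here.

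At E10.5, loss of Med30 came with lower transcripts of 3 Nduf genes, the core subunit gene Ndufs7 and the assembly factor genes Ndufaf4 and Ndufaf1. Each stood at 55.0% to 64.4% of its Ctrl mean. No Nduf gene passed as higher. The 3 that fell were 3 of 45, against a background of 3.45% of all genes tested that fell and 0.864% that rose. By limma, 0 members were higher also at an unadjusted p under 0.05, and 22 were lower. The share of all genes at that unadjusted threshold was not counted, so the 22 are not set against a background. With median-ratio scaling 4 fell and 0 were higher, against 2.60% and 2.45% of all genes at an adjusted p under 0.05. With quantile normalisation 3 fell and 0 were higher, against 2.39% and 2.84%. At an unadjusted p under 0.05, 0 members were higher under either scaling. Log2 fold changes were below 0 for 42 of 45 (all genes 68.6%), for 36 with median-ratio scaling (51.8%) and for 32 with quantile normalisation (50.6%). The members as deposited had a median of -0.30 against -0.13 for all genes. Groups did not overlap, with cKO below Ctrl, for 17 members (all genes 22.6%), and with cKO above Ctrl for 0 (all genes 6.50%).

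Ndufs7 carries the last iron-sulfur cluster before ubiquinone. It measured 39.1, 38.2 and 37.6 RPKM in Ctrl and 25.1, 22.7 and 26.2 RPKM in cKO hearts. The groups were far apart, with an SD of 0.772 RPKM in Ctrl and 1.79 RPKM in cKO. Its log2 fold change was -0.64 (SE 0.105, adjusted p = 0.0215), and with median-ratio scaling -0.52. Ndufaf4 encodes a factor that builds the ubiquinone-binding part of the matrix arm together with NDUFAF3. It measured 8.17, 6.46 and 8.25 RPKM in Ctrl and 4.08, 4.65 and 3.85 RPKM in cKO hearts. The log2 fold change was -0.84 (SE 0.145, adjusted p = 0.0217), and -0.72 with median-ratio scaling. Ndufaf1 encodes a factor of the complex that assembles part of the membrane arm. It measured 14.2, 13 and 11.9 RPKM in Ctrl and 8.63, 8.46 and 6.94 RPKM in cKO hearts, again without overlap. Its log2 fold change was -0.70 (SE 0.129, adjusted p = 0.0251), and -0.58 with median-ratio scaling. These calls were close to the threshold. Of 6 fits that each left out 1 sample, the call was lost in 5 for Ndufaf1, in 4 for Ndufaf4 and in 3 for Ndufs7. The count of members that fell was 0 without Ctrl replicate 3 or cKO replicate 1, 1 without Ctrl replicate 1 or cKO replicate 2, and 6 without cKO replicate 3.

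Of the other core subunit genes described here, none passed at E10.5. Ndufs8, another iron-sulfur subunit, measured 51.9, 45.0 and 40.5 RPKM in Ctrl and 30.5, 28.4 and 36.1 RPKM in cKO hearts, with a log2 fold change of -0.53 (SE 0.135, adjusted p = 0.0560), and passed with median-ratio scaling at -0.41. Ndufs1 stood at -0.40, Ndufv2 at -0.39, Ndufv1 at -0.26 and Ndufs3 at -0.20.

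Of the 8 assembly factor genes, all had log2 fold changes below 0 (all genes 68.6%) and 6 had groups that did not overlap, with cKO lower (all genes 22.6%). Their median was -0.66. The 6 that did not pass were Ndufaf2 (-0.84), Ndufaf8 (-0.81), Ndufaf6 (-0.62), Ndufaf3 (-0.57), Ndufaf7 (-0.53) and Ndufaf5 (-0.29). Ndufaf6 had the smallest adjusted p of these, 0.0557, with 5.14, 4.85 and 5.36 RPKM in Ctrl and 2.70, 3.69 and 3.58 RPKM in cKO hearts.

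No accessory subunit gene passed at E10.5. In the matrix arm, median -0.21, the lowest were Ndufs6 (-0.56), Ndufs4 (-0.37) and Ndufa9 (-0.30), and the highest were Ndufa2 and Ndufa6 (both -0.07, and 0.05 with median-ratio scaling). In the membrane arm, median -0.24, the lowest after Ndufs5 were Ndufb4 (-0.81) and Ndufb2 (-0.61), and the highest were Ndufa3 (0.13) and Ndufa1 (0.04). Ndufab1, the mitochondrial acyl carrier protein, ranged from 10.9 to 31.0 RPKM in Ctrl and from 16.4 to 19 RPKM in cKO hearts, with a log2 fold change of -0.09 (0.03 with median-ratio scaling). Ndufa4 stood at -0.38 (adjusted p = 0.196).

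Spread among the Ctrl hearts was wide for these genes. Ctrl replicate 1 had the highest value of the 3 Ctrl samples for 40 of 45 members and Ctrl replicate 2 the lowest for 36. The summed RPKM of the 46 genes was 2385, 1602 and 1874 in Ctrl and 1507, 1543 and 1721 in cKO hearts, so that the groups overlapped and the cKO mean was 81.4% of the Ctrl mean. Summed cardiomyocyte markers were also lower in cKO hearts, 5277 to 6594 RPKM against 7579 to 10990 RPKM, with 10 of 10 markers above 1 RPKM in both groups. Of these 10, 3 did not overlap between groups, all lower in cKO (Myl2, Actc1 and Myh7), and as deposited Myh7 alone passed, while Ttn stood at 0.17 and Actn2 at 0.04. Summed erythroid markers were 379 to 2244 RPKM in cKO and 238 to 784 RPKM in Ctrl hearts, and mural markers 438 to 518 RPKM against 360 to 393 RPKM. Acta2 alone, most of the mural sum, averaged 468 RPKM in cKO and 366 RPKM in Ctrl hearts. Fibroblast and endothelial sums overlapped between groups, and macrophage sums were 4.93 to 6.82 RPKM in cKO against 8.51 to 11.2 RPKM in Ctrl. As deposited, 0 of 4 mural and 0 of 7 erythroid markers tested passed, and Lyz2 alone of the macrophage markers passed, as lower. Their part in the Nduf values was not tested. In whole hearts, fewer cardiomyocytes and less RNA per cardiomyocyte cannot be told apart.

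**Figure D1:**
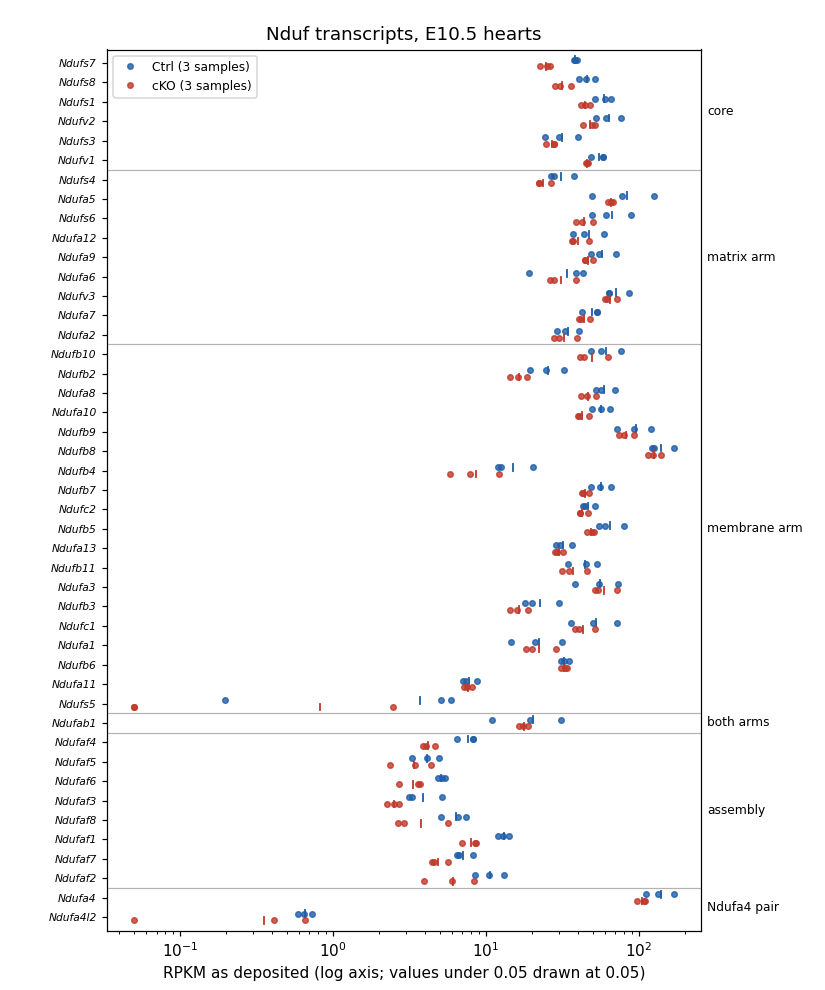
RPKM as deposited of 45 Nduf genes in E10.5 hearts, on a log axis, with 3 Ctrl samples (blue) and 3 cKO samples (red) per gene and a bar at each mean. Values under 0.05 are drawn at 0.05, and genes are grouped by role. Assembly factors lie between 2.25 and 14.2 RPKM, and for 17 genes all cKO points lie left of all Ctrl points.

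At 4 weeks after tamoxifen, the lowest log2 fold changes were those of the core subunit genes Ndufs7, Ndufs8 and Ndufs1, the assembly factor genes Ndufaf4, Ndufaf5 and Ndufaf6, and the accessory subunit gene Ndufb10. With RPKM as deposited, 23 of 45 Nduf genes fell in icKO cardiomyocytes, 7 of them beyond 2-fold, and 3 rose. Over all genes tested, 18.1% fell, 8.45% fell beyond 2-fold and 60.6% rose. The median of the members was -0.20 against 0.57 for all genes. With median-ratio scaling 42 fell, 15 of them beyond 2-fold, and 0 rose (0 also at an unadjusted p under 0.05). The background was then 33.5%, 15.5% and 34.7%, and the median of the members -0.74. With quantile normalisation, which gives all samples the same distribution, 23 fell, 9 beyond 2-fold, and 6 rose, against 31.6%, 14.0% and 37.1% of all genes, and the median was -0.26. Log2 fold changes below 0 numbered 33 of 45 as deposited (all genes 26.9%), 44 with median-ratio scaling (48.1%) and 32 with quantile normalisation (45.4%). Groups did not overlap for 24 members with icKO lower (all genes 18.9%) and for 5 with icKO higher (62.0%). Median-ratio scaling, quantile normalisation, the values as deposited and scaling to the sum without the 20 most abundant genes made 4 scalings. Under all 4, 18 members fell, and 6 of these fell beyond 2-fold under all 4 (Ndufs1, Ndufs7, Ndufs8, Ndufaf4, Ndufaf5 and Ndufaf6). The shares of all genes that did so under all 4 were not counted. They can be at most those as deposited, 18.1% and 8.45%.

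Of the 6 core subunit genes described here, 5 fell (all genes 18.1%) and Ndufv1 did not pass. Ndufs7 measured 267, 276 and 260 RPKM in Ctrl and 99.1, 112 and 115 RPKM in icKO cardiomyocytes, or 40.6% of the Ctrl mean. Its log2 fold change was -1.30 (95% interval -1.48 to -1.12, adjusted p = 1.2e-06), or -1.87 after subtracting the all-gene median and -1.84 with median-ratio scaling. Ndufs8 measured 172, 168 and 175 RPKM in Ctrl and 63.4, 83.8 and 85.5 RPKM in icKO cardiomyocytes. Its log2 fold change was -1.16 (95% interval -1.42 to -0.90, adjusted p = 1.697e-05). In both genes the highest icKO value stayed well below the lowest Ctrl value. Ndufs1, the largest core subunit and the carrier of several iron-sulfur clusters, measured 222, 217 and 211 RPKM in Ctrl and 103, 107 and 107 RPKM in icKO cardiomyocytes. The log2 fold change was -1.03 (SE 0.0663, adjusted p = 1.536e-06).

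Ndufv2, the iron-sulfur partner of NDUFV1, fell from a mean of 207 ± 7.73 to 145 ± 7.69 RPKM (SD, 3 samples each), a log2 fold change of -0.51. Ndufs3, a core subunit without a cofactor, fell from 121 ± 3.59 to 97.1 ± 8.24 RPKM, a log2 fold change of -0.33. Ndufv1, the subunit that binds NADH and the flavin, stood apart. It measured 300.1, 317 and 300.1 RPKM in Ctrl and 293, 318 and 309 RPKM in icKO cardiomyocytes, and its groups overlapped. The log2 fold change was 0.01 (95% interval -0.15 to 0.16, adjusted p = 0.95). This too depends on the scale, since with median-ratio scaling Ndufv1 fell by 0.54 on the log2 scale (adjusted p = 0.000256) and with quantile normalisation it rose by 0.26 (adjusted p = 0.00925). Under each of the 4 scalings its log2 fold change was the highest of these core genes. The 4 are not independent here. All but quantile normalisation differ only by a factor per sample, which shifts these genes alike and keeps their order.

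Assembly factor genes split into 4 that fell, 1 that rose and 3 that did not pass (all genes 18.1% lower and 60.6% higher). Ndufaf4 had the lowest log2 fold change of the members, with 11.8, 9.19 and 11.1 RPKM in Ctrl and 3.62, 4.25 and 4.31 RPKM in icKO cardiomyocytes. Its log2 fold change was -1.37 (95% interval -1.65 to -1.09, adjusted p = 1.061e-05), and -1.90 with median-ratio scaling. Ndufaf5, which encodes the enzyme that hydroxylates an arginine of NDUFS7, measured 5.35, 3.89 and 3.93 RPKM in Ctrl and 1.60, 1.99 and 2.35 RPKM in icKO cardiomyocytes (log2 fold change -1.11, adjusted p = 0.000428). Ndufaf6, another factor of the ubiquinone-binding part, measured 8.79, 7.24 and 5.91 RPKM in Ctrl and 3.13, 3.39 and 4.03 RPKM in icKO cardiomyocytes (-1.02, adjusted p = 0.000323). Ndufaf3, the partner of NDUFAF4, fell from a mean of 12 to 6.96 RPKM (-0.78). In each of these 4 genes no icKO value reached the lowest Ctrl value, which held for 18.9% of all genes.

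The other 4 assembly factor genes moved little or upward as deposited. Ndufaf2, whose product is a paralogue of the accessory subunit NDUFA12 and acts late in assembly, measured 8.16, 7.13 and 8.0 RPKM in Ctrl and 10.2, 11.2 and 8.75 RPKM in icKO cardiomyocytes. It rose by 0.36 (adjusted p = 0.0165), a call lost without Ctrl replicate 2 or icKO replicate 2, and stood at -0.17 with median-ratio scaling and -0.21 with quantile normalisation. Ndufaf1 (-0.04), Ndufaf8 (-0.07), the partner of NDUFAF5, and Ndufaf7 (0.10), a methyltransferase, did not pass. With median-ratio scaling these 3 passed, at -0.58, -0.61 and -0.43, and with quantile normalisation at -0.55, -0.59 and -0.46, so that 7 of the 8 were lower and 0 higher under either. Over all genes, 33.5% were lower and 34.7% higher with median-ratio scaling, and 31.6% and 37.1% with quantile normalisation.

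**Figure D2:**
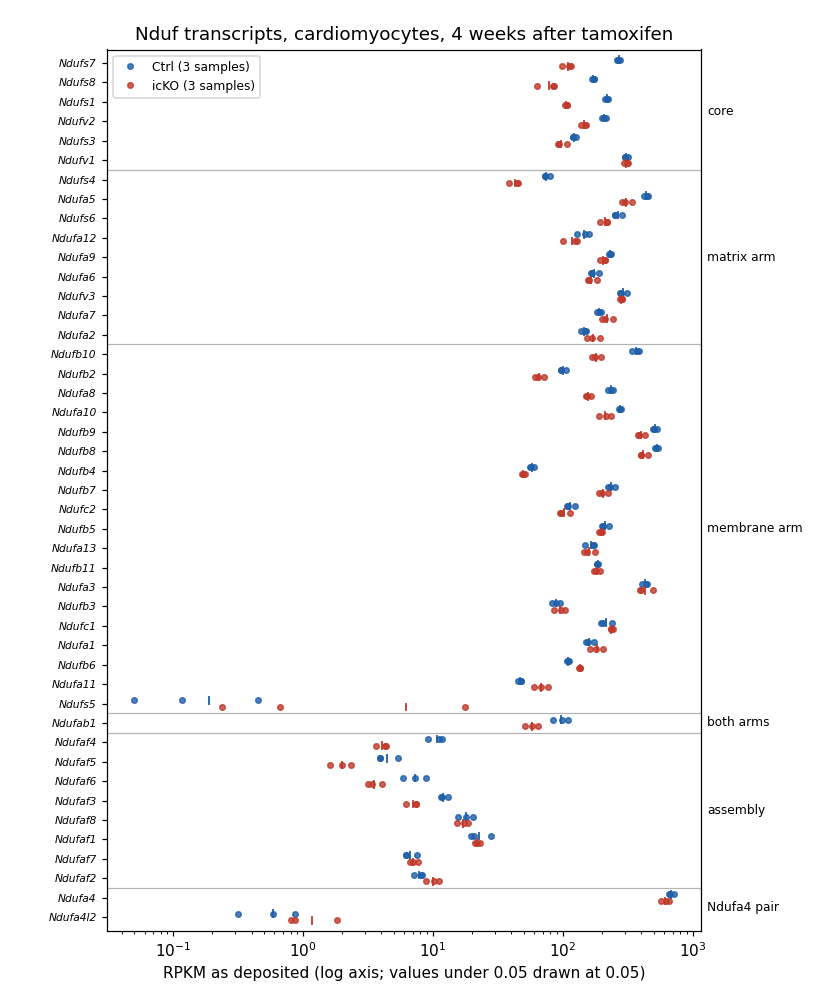
RPKM as deposited of 45 Nduf genes in cardiomyocytes 4 weeks after tamoxifen, on a log axis, with 3 Ctrl samples (blue) and 3 icKO samples (red) per gene and a bar at each mean. Values under 0.05 are drawn at 0.05. Red and blue points are well separated for Ndufs7, Ndufs8, Ndufs1, Ndufb10 and Ndufaf4, and lie on each other for Ndufv1, Ndufv3 and Ndufa3.

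In the matrix arm, 5 of 9 accessory subunit genes fell and 0 rose, with 4 that did not pass (all genes 18.1% lower and 60.6% higher). With median-ratio scaling all 9 fell (all genes 33.5%), and with quantile normalisation 3 fell and 2 rose (all genes 31.6% and 37.1%). Ndufs4, whose loss in people causes Leigh syndrome, measured 79.1, 72.6 and 72.1 RPKM in Ctrl and 38.6, 44.4 and 45.4 RPKM in icKO cardiomyocytes, a log2 fold change of -0.80 (SE 0.0871, adjusted p = 3.105e-05). Ndufa5 measured 445, 419 and 450 RPKM in Ctrl and 283, 341 and 300 RPKM in icKO cardiomyocytes (-0.51, adjusted p = 0.00049). Ndufs6, a zinc-binding subunit, stood at -0.33, Ndufa12 at -0.30 and Ndufa9, an NADPH-binding subunit, at -0.18, and all 3 passed. With quantile normalisation Ndufs6 (-0.15) and Ndufa9 (-0.03) did not pass. The calls of Ndufa12 and Ndufa9 were lost in 3 and 4 of the 6 fits that left out a sample. The highest were Ndufa2 (0.22, adjusted p = 0.0546) and Ndufa7 (0.20, adjusted p = 0.0717), at -0.32 and -0.34 with median-ratio scaling, where both passed as lower. With quantile normalisation Ndufa7 passed as higher (0.32) and Ndufa2 did not pass (0.14).

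In the membrane arm, 7 of 19 fell, 2 rose and 10 did not pass (all genes 18.1% lower and 60.6% higher). With median-ratio scaling 17 fell and 0 rose (all genes 33.5% and 34.7%). With quantile normalisation 6 fell, the same share as the 31.6% of all genes, and 2 rose (all genes 37.1%). Ndufb10, a cysteine-rich subunit on the intermembrane-space side, measured 369, 339 and 384 RPKM in Ctrl and 167, 196 and 177 RPKM in icKO cardiomyocytes, or 49.5% of the Ctrl mean. Its log2 fold change was -1.02 (95% interval -1.21 to -0.82, adjusted p = 7.302e-06). Ndufb2 stood at -0.59 and Ndufa8, another cysteine-rich subunit of that side, at -0.58. Ndufa10, Ndufb9 and Ndufb8 fell by 0.38, 0.36 and 0.35 on the log2 scale, calls lost with quantile normalisation (-0.21, -0.12 and -0.09), and Ndufb4 by 0.21, a call lost in 3 of the 6 fits that left out a sample. The 2 that rose were Ndufa11 and Ndufb6. Ndufa11 measured 45.4, 47.5 and 47.1 RPKM in Ctrl and 60.1, 76.2 and 68.3 RPKM in icKO cardiomyocytes, a log2 fold change of 0.54 (SE 0.0947, adjusted p = 0.000646). After subtracting the all-gene median it stood at -0.03, and with median-ratio scaling at -0.0008 (adjusted p = 0.996). Ndufb6 measured 108, 111 and 110.2 RPKM in Ctrl and 135, 133 and 136 RPKM in icKO cardiomyocytes (0.30, adjusted p = 0.00226), and passed as lower, at -0.24, with median-ratio scaling. With quantile normalisation neither of the 2 passed (0.11 and 0.04). Ndufs5 was at 2.86, through the 17.5 RPKM of a single sample, and did not pass.

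Ndufab1, which also serves mitochondrial fatty acid synthesis and iron-sulfur cluster formation, measured 97.7, 84.4 and 109 RPKM in Ctrl and 57.6, 64.2 and 51.0 RPKM in icKO cardiomyocytes, a log2 fold change of -0.75 (SE 0.117, adjusted p = 0.000306). Ndufa4 measured 719, 671 and 657 RPKM in Ctrl and 616, 658 and 571 RPKM in icKO cardiomyocytes. Its groups overlapped, with a log2 fold change of -0.15 (adjusted p = 0.115), which was -0.69 with median-ratio scaling and 0.21 with quantile normalisation, where it passed in opposite directions.

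**Figure D3:**
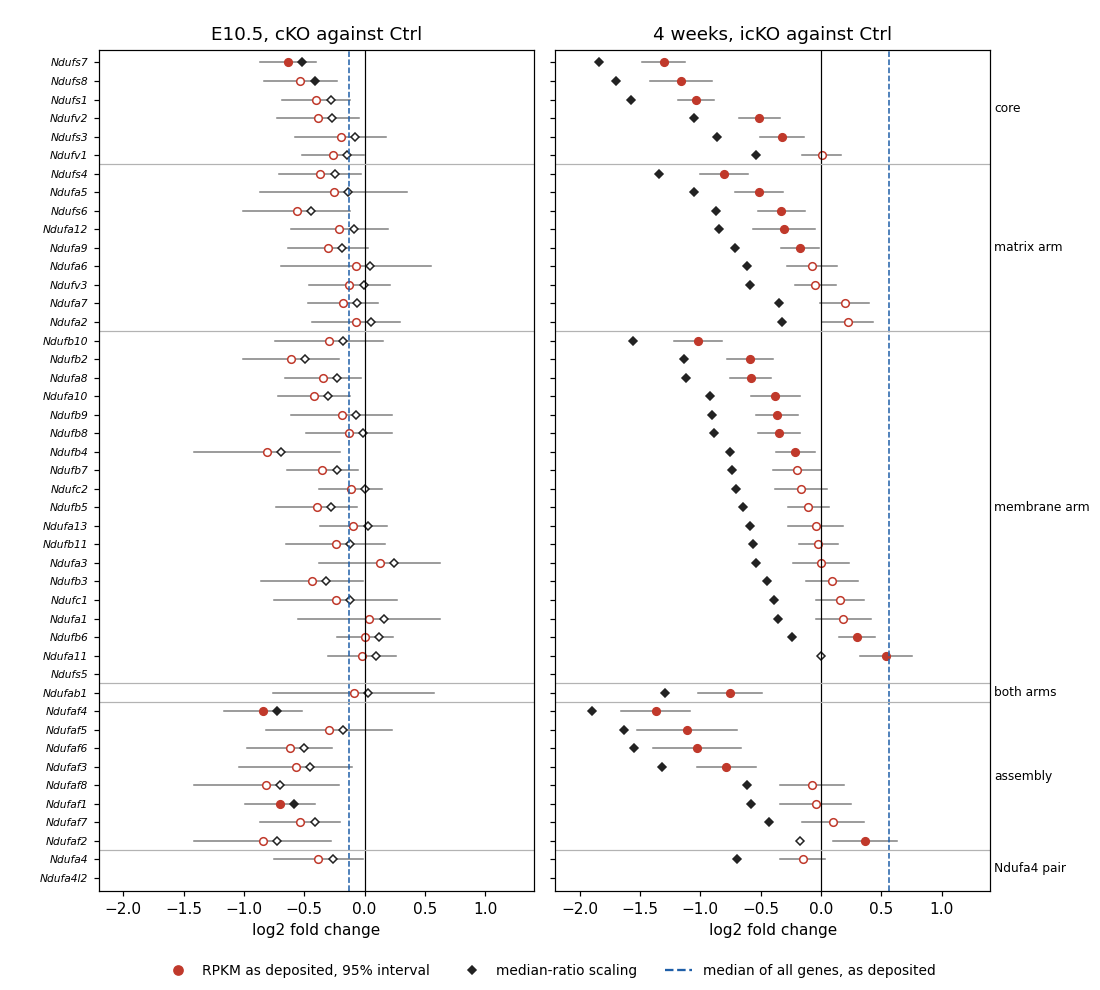
Log2 fold change of knockout against Ctrl for the Nduf genes described here except Ndufs5, at E10.5 (left) and 4 weeks (right). Circles are RPKM as deposited with 95% intervals, diamonds the values with median-ratio scaling, filled symbols passed, and the dashed line is the median of all genes as deposited (-0.13 and 0.57). At 4 weeks every circle lies left of the dashed line, and every diamond lies left of its circle. Median-ratio scaling divides each sample by a factor, so that it shifts these genes alike.

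Summed over the 46 genes, RPKM at 4 weeks was 8731, 8303 and 8461 in Ctrl and 6688, 7512 and 6841 in icKO cardiomyocytes, with no overlap and an icKO mean of 82.5% of the Ctrl mean. After median-ratio scaling the sums were 10619, 9960 and 10171 in Ctrl and 5410, 6216 and 5827 in icKO cardiomyocytes. Cell type markers were summed in the same samples. Summed cardiomyocyte markers went from 24480 to 25880 RPKM in Ctrl to between 9581 and 12120 RPKM in icKO samples, with 7 of the 10 lower and 2 higher (Actn2 and Nkx2-5) as deposited, 7 and 1 with median-ratio scaling, and 3 and 2 with quantile normalisation. Summed fibroblast markers went from between 5.03 and 8.39 RPKM to between 60.4 and 87.5 RPKM (1 of 8 markers above 1 RPKM in Ctrl, 6 of 8 in icKO), endothelial markers from between 26 and 66.6 RPKM to between 57.1 and 96.1 RPKM, and macrophage markers from between 2.45 and 4.35 RPKM to between 5.42 and 8.5 RPKM. The endothelial ranges overlapped, as did those of mural markers (47.0 to 72.3 RPKM in Ctrl, 46.7 to 79.1 RPKM in icKO) and erythroid markers (1.17 to 10.9 RPKM and 5.80 to 11.9 RPKM). Acta2, most of the mural sum, averaged 48.1 RPKM in Ctrl and 35.8 RPKM in icKO. As deposited, 3 of 7 endothelial and 2 of 4 mural markers tested passed as higher and 0 as lower (all genes 60.6% and 18.1%). With median-ratio scaling 1 of each list passed as higher and 1 mural marker as lower (all genes 34.7% and 33.5%). Their part in the Nduf values was not tested, and fewer cardiomyocytes and less RNA per cardiomyocyte cannot be told apart.

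**Figure D4:**
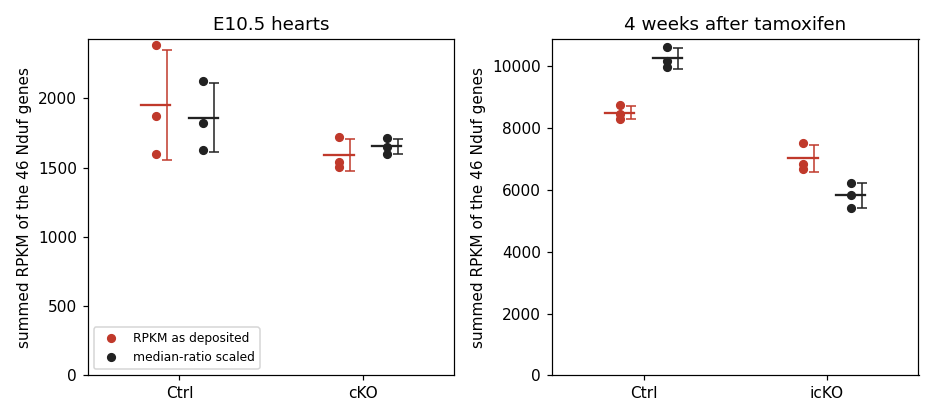
Summed RPKM of the 46 Nduf genes in each sample, as deposited (red) and after median-ratio scaling (black), with the mean as a horizontal bar and the SD of 3 samples as an error bar. At E10.5 the Ctrl samples span 1602 to 2385 RPKM as deposited and overlap cKO, and at 4 weeks both scales separate Ctrl from icKO.

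The difference between the knockout effects was tested for each gene, as the log2 fold change at 4 weeks minus that at E10.5. Stage, material (whole hearts or cardiomyocytes), Cre driver and time since deletion change together in this difference and cannot be told apart. As deposited, 6 of 45 members passed as lower at 4 weeks and 6 as higher, against 9.29% and 59.4% of all genes. With median-ratio scaling 31 passed as lower and 0 as higher (1 at an unadjusted p under 0.05), against 24.8% and 28.3%, and with quantile normalisation 13 and 2, against 19.7% and 25.5%. For this difference quantile normalisation was run over all 12 samples together, which gives both stages the same distribution. Median-ratio scaling was done within each stage. Ndufs7 passed as lower at both stages and had a difference of -0.67 (SE 0.129, adjusted p = 0.000474). Ndufs1 had a difference of -0.63 (adjusted p = 0.00145) and Ndufs8 also one of -0.63 (adjusted p = 0.00939). Ndufb10 (-0.72), Ndufaf5 (-0.81) and Ndufaf4 (-0.53) completed the genes that were lower. Each of these 6 also passed as lower with median-ratio scaling and with quantile normalisation. Higher at 4 weeks as deposited were Ndufaf2 (1.21, adjusted p = 0.0039), Ndufaf1 (0.66, adjusted p = 0.0075), Ndufaf7 (0.63), Ndufa11 (0.56, adjusted p = 0.00557), Ndufb6 (0.30) and the uncertain Ndufs5. None of these 6 passed as higher with median-ratio scaling, where Ndufaf1 stood at 0.0013 and Ndufb6 passed as lower. Thus, as deposited, 2 of the 3 genes that fell at E10.5, Ndufs7 and Ndufaf4, also fell at 4 weeks. The third, Ndufaf1, was then at -0.70 in embryos and -0.04 in adult cardiomyocytes. With median-ratio scaling Ndufaf1 passed as lower at both stages (-0.58 at each). With quantile normalisation it did so too (-0.57 at E10.5 and -0.55 at 4 weeks).

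Other respiratory chain genes were counted in the same fits. Nuclear genes of complexes II to V, which take electrons from succinate, carry them to oxygen and make ATP, had 27 lower and 2 higher of 47 tested at 4 weeks (all genes 18.1% and 60.6%), with a median of -0.23, and 46 lower and 0 higher (0 also at an unadjusted p under 0.05) with median-ratio scaling, with a median of -0.77. With quantile normalisation 23 were lower and 11 higher. Over all genes these shares were 33.5% and 34.7% with median-ratio scaling, and 31.6% and 37.1% with quantile normalisation. For the Nduf genes the medians were -0.20 and -0.74. At E10.5, 0 of these 47 passed by limma, with a median of -0.30, equal to that of the Nduf genes. At an unadjusted p under 0.05, 18 were lower, a threshold at which the share of all genes was not counted. As lower, 4 passed with median-ratio scaling (all genes 2.60%) and 2 with quantile normalisation (all genes 2.39%). The lowest at 4 weeks were Sdhb (-1.15), the iron-sulfur subunit of complex II, Uqcrc1 (-1.02), a core subunit of complex III, and Sdhd (-0.97), a membrane anchor of complex II.

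Complex I assembly factors without an Nduf name (13 in the tables) had 5 lower and 3 higher at 4 weeks (all genes 18.1% and 60.6%). With median-ratio scaling 10 were lower and 0 higher (all genes 33.5% and 34.7%), as with quantile normalisation (all genes 31.6% and 37.1%). Dmac2 had the lowest log2 fold change (-1.22), with Ctrl and icKO means of 15.7 and 6.76 RPKM. Timmdc1 (0.84) and Chchd4 (0.66) rose as deposited and did not pass with median-ratio scaling (0.30 and 0.12). At E10.5, 2 of the 13 fell (all genes 3.45%), Tmem126a (-0.68) and Foxred1 (-0.51). With median-ratio scaling 1 fell (all genes 2.60%), as with quantile normalisation (all genes 2.39%).

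**Figure D5:**
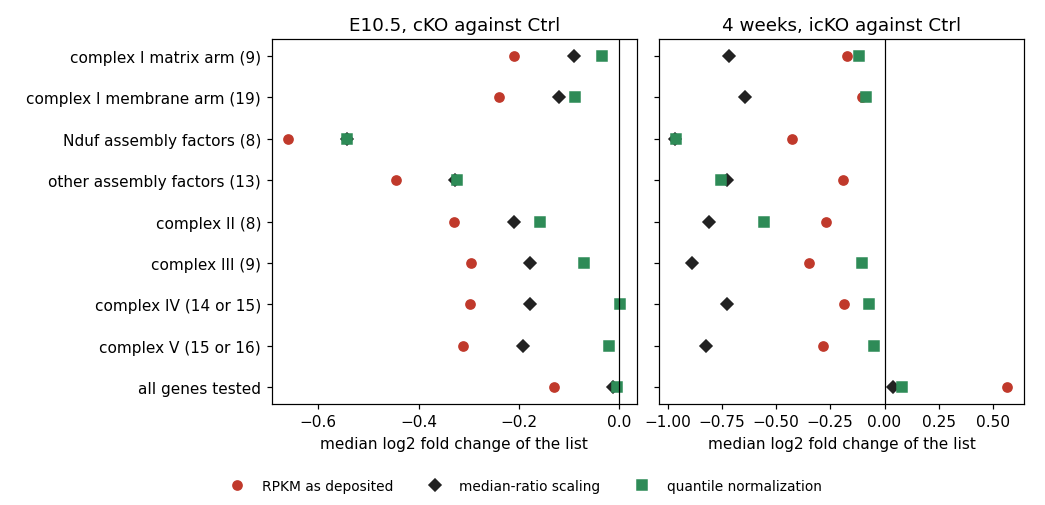
Median log2 fold change of each gene list at E10.5 (left) and 4 weeks (right), with RPKM as deposited (circles), median-ratio scaling (diamonds) and quantile normalisation (squares). At 4 weeks Nduf assembly factors are at -0.43, -0.96 and -0.96, and all genes tested at 0.57, 0.04 and 0.08.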

How the data were processed

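RNA-seq of 12 samples in 4 groups was analysed from 2 tables, in the unit the authors deposited: RPKM per gene symbol. Per the methods and the labels, the authors prepared ribosome-depleted libraries with the KAPA RNA HyperPrep kit and mapped reads to mm10. The submitters' processing notes name cutadapt 2.6, STAR 2.5.3a, HOMER 4.11.1 and DESeq2 1.12.4. Their own log2 fold changes and FDR values (2 columns per table) were not used. RPKM are not counts, so the study's count test could not be applied.

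Genes with a mean above 1 RPKM over the 6 samples of a table were tested on log2(RPKM + 0.1) with limma 3.58.1 in R 4.3.3 (lmFit, eBayes with trend, two-sided), as deposited, with Benjamini-Hochberg adjustment over 10885 genes at E10.5 and 9517 at 4 weeks. The difference between stages was fitted over all 12 samples for 8909 genes. Alternatives were other pseudocounts, filters, scalings and variance models, a replicate block, and leaving out each sample. The code was tested on simulated data.

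Depth was estimated by finding the number of reads at which low RPKM fell nearest to whole reads. Then 64.3% to 71.4% of low values were at most 0.1 from a whole read, where chance gives 20%, so reads were not recovered. Intervals cover the spread between samples. Positions and shared 50-base words come from GRCm38 (GENCODE) and promoters from RefSeq GRCm38.p6. Replicate numbers were not used to pair samples in the main fits. Correlations of same-numbered deviations were -0.07 to 0.101 at E10.5 and 0.043 to 0.153 at 4 weeks. Those of differently numbered samples were -0.177 to 0.13 and -0.129 to 0.081. With 3 samples per group these values cannot settle whether equal numbers mark pairs.

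A gene is not reported here and enters only counts, medians and sums. Core subunits, assembly factors, Ndufab1, Ndufa4 and Ndufa4l2 are named, with the 3 lowest and 2 highest of each accessory group, those beyond 2-fold, those that passed against their group, and the 5 with the smallest adjusted p between stages. Of other lists up to 3 are named. Ndufa10, Ndufb8, Ndufb9, Ndufb4, Ndufa12, Ndufv3, single cell type markers, regulators that rose and genes with shared sequence were named after their values were seen. Members and lists were chosen with earlier results of these data known.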

Additional observations from a re-analysis of the deposited data

Results flagged for a closer look

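Knockout effects differed between 4 weeks and E10.5 for 12 Nduf genes by the test of the difference itself, with RPKM as deposited. Lower at 4 weeks were Ndufaf5 (-0.81), Ndufb10 (-0.72), Ndufs7 (-0.67), Ndufs1 (-0.63), Ndufs8 (-0.63) and Ndufaf4 (-0.53), as log2 fold change at 4 weeks minus that at E10.5. Higher were Ndufaf2 (1.21), Ndufaf1 (0.66), Ndufaf7 (0.63), Ndufa11 (0.56), Ndufb6 (0.30, rounded from 0.295) and Ndufs5 (5.69). Median-ratio scaling kept the first 6 on their side of the threshold and none of the others. The value of Ndufs5 rests on samples between 0 and 17.5 RPKM.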

How the results depend on the processing

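Scaling between samples changed counts at 4 weeks and in the stage difference, while at E10.5 it left 2 to 4 members lower. At 4 weeks, median-ratio scaling gave 42 Nduf genes lower, 0 higher and 15 lower beyond 2-fold, with a median log2 fold change of -0.74. Quantile normalisation gave 6 higher and a median of -0.26, and scaling to the sum without the 20 most abundant genes 1 higher and a median of -0.44. Summed Nduf RPKM in icKO cardiomyocytes, 82.5% of Ctrl as deposited, became 56.8%, 88.7% and 69.7% under these 3 scalings. For the difference between stages they gave 31, 13 and 24 members lower and 0, 2 and 1 higher, with medians of -0.62 for median-ratio scaling and -0.37 without the 20 most abundant genes. Sample weights gave 17 lower at E10.5, 6 higher at 4 weeks and 11 higher in the difference. Without a trend in the variance 1 was lower at E10.5. Shares of all genes were not counted for these fits, the replicate block or the fits that left out a sample. Their counts are therefore not set against a background. The causes were not tested.

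Single genes changed sign mostly near 0. At E10.5, Ndufa2, Ndufa6 and Ndufab1 turned positive with median-ratio scaling (0.0503, 0.0483, 0.0307), quantile normalisation (0.0789, 0.0793, 0.0554) and the sum without the 20 most abundant genes (0.11, 0.10, 0.0858), and Ndufa1 was -0.0626 with sample weights. At 4 weeks, median-ratio scaling turned Ndufa11 (-0.0008), Ndufa2 (-0.32), Ndufa7 (-0.34), Ndufaf2 (-0.17), Ndufaf7 (-0.43), Ndufb6 (-0.24) and Ndufv1 (-0.54), quantile normalisation Ndufa4 (0.21), Ndufaf2 (-0.21) and Ndufaf7 (-0.46), and the sum without the 20 most abundant genes Ndufa2 (-0.0217), Ndufa7 (-0.0465), Ndufaf7 (-0.14) and Ndufv1 (-0.24). Ndufaf1 was 0.0083 with sample weights. The stage difference of Ndufa11 was -0.10 with median-ratio scaling and -0.01 with quantile normalisation.

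With each sample left out in turn, members lower at E10.5 numbered 0 to 6. At 4 weeks 2 to 6 were higher, with 6 without icKO replicate 3, and 4 to 7 lower beyond 2-fold, with 4 without icKO replicate 1. In the stage difference 4 to 13 were lower, with 13 without E10.5 Ctrl replicate 1, and 4 to 10 higher, with 10 without E10.5 Ctrl replicate 2. Log2 fold changes that changed sign ranged at E10.5 from -0.22 to 0.058 (Ndufa2), -0.44 to 0.15 (Ndufa6), -0.48 to 0.27 (Ndufab1), -0.24 to 0.32 (Ndufa1) and -0.12 to 0.35 (Ndufa3), and at 4 weeks from -0.14 to 0.11 (Ndufaf1), -0.17 to 0.0151 (Ndufaf8) and -0.0217 to 0.0373 (Ndufv1). The replicate block, which treats equal replicate numbers as pairs, gave 6 lower at E10.5, 21 lower and 4 higher at 4 weeks, and 6 lower and 7 higher in the stage difference. Other pseudocounts and RPKM filters moved no count by over 1.5 times. Depth limits Ndufs5, which lay under the level of 3 reads in several samples at both stages.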

Other observations

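Regulators of mitochondrial gene expression, counted in the same fits, had 6 lower and 3 higher of 12 tested at 4 weeks as deposited, 8 lower and 1 higher with median-ratio scaling, and 8 lower and 2 higher with quantile normalisation. As deposited the higher ones were Gabpb1 (1.10), Nrf1 (0.85) and Yy1 (0.54), at 0.58, 0.33 and 0.0007 with median-ratio scaling, where Gabpb1 alone passed. The lowest were Ppargc1b, Ppara and Ppargc1a. Ppargc1b, a coactivator of mitochondrial genes, had means of 12.3 RPKM in Ctrl and 1.10 RPKM in icKO samples, a log2 fold change of -3.38 (SE 0.233, adjusted p = 2.207e-06). Ppara, a nuclear receptor of fatty acid oxidation genes, averaged 16.3 and 3.32 RPKM (-2.28), and Ppargc1a, the relative of Ppargc1b, 23.8 and 6.25 RPKM (-1.90). At E10.5, 2 of 10 tested fell (all genes 3.45%), the receptor gene Esrrg (-0.70, adjusted p = 0.0328) and Gabpa (-0.57, adjusted p = 0.0418). Gabpa encodes the ETS factor named with the motif above. With median-ratio scaling Esrrg alone passed (adjusted p = 0.0496), and with quantile normalisation 0 of the 10 passed. The shares over all genes are those given in the report.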
